A study of Mus musculus with 34 samples.

Results

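The genes described here encode the nuclear subunits of the mitochondrial respiratory chain and of ATP synthase, measured by RNA sequencing in sorted mouse colonic macrophages. They were chosen by symbol alone: Ndufa, Ndufb, Ndufc, Ndufs and Ndufv genes for complex I, Sdha to Sdhd for complex II, Uqcr genes and Cyc1 for complex III, Cox genes of the families 4 to 8 for complex IV, and Atp5 genes for complex V. This gave 76 of the 9851 genes listed in at least 1 of 3 deposited tables, of which 36 belonged to complex I, 4 to complex II, 9 to complex III, 11 to complex IV and 16 to complex V. The tables listed 75, 74 and 76 of them, 73 were in all 3 tables, and 72 in each table passed the filter on low values and were tested. Atp5s and Atp5sl match by symbol but are not subunits, Ndufa4 was kept with complex I by its symbol although it is found with complex IV, and Cox7a2l is an assembly factor for supercomplexes. Cox4i1 and Ndufab1 fall outside the symbol rule, and genes encoded by mitochondrial DNA were not among those chosen.

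Macrophages were sorted from the colonic lamina propria of C57BL/6 mice as CD45+ CD11b+ CD11c-intermediate CD64+ Ly6c- CD103- cells, and polyadenylated RNA was amplified by in vitro transcription. The first table compared 3 libraries titled CXhet with 3 titled IL10R, from untreated mice aged 6 to 7 weeks. The rescue table held mice of the same age in 5 groups: 2 untreated CX libraries, 5 untreated IL10R libraries, 4 untreated IL10R_P19 libraries, 4 IL10R_abx libraries from mice given antibiotics in drinking water, and 3 littermate_abx libraries from mice given the same. The neutrophil table held bone marrow chimeras 4 weeks after transfer, as 4 wt, 3 ko_igg and 3 ko_ly6g libraries. All 10 carry the same treatment label, an anti-Ly6g injection, although the titles separate them, and the groups used here are those of the titles. The series' title names gut macrophages without IL-10Rα. In the rescue table the titles of IL10R, IL10R_P19 and IL10R_abx libraries also carry the tag 5C5, and those of CX and littermate_abx do not. The part of this tag cannot be told apart from that of the receptor there. The Cre driver, the genotype of CX, CXhet and littermate mice, the deletion behind P19 and the meaning of 5C5 are not stated in the labels. Nor are the donor and host of the chimeras, or any pooling of animals. The titles number the libraries but do not say that they came from separate animals, so p-values reflect how far these libraries scatter, and that scatter may be technical.

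Complexes I to IV pass electrons from NADH and succinate to oxygen and, except for complex II, pump protons across the inner mitochondrial membrane, and complex V uses the proton gradient to make ATP. In macrophages, inflammatory activation is known to shift energy production from respiration towards glycolysis, whereas macrophages activated by IL-4 rely on respiration. Absorptive epithelial cells of the colon are also rich in mitochondria and oxidise butyrate made by bacteria.

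Il10ra, which encodes the alpha chain of the IL-10 receptor, was examined first as a check of the labels. In the rescue table its value was 248 and 284 in the CX libraries and 145, 191 and 138 in littermate_abx, against 4.56 to 31.2 in IL10R, 3.81 to 12.2 in IL10R_P19 and 1.70 to 8.71 in IL10R_abx. In the first table it was 689, 501 and 371 in CXhet and 9.26, 361 and 65.9 in IL10R, so that the library labelled IL10R 2 lay close to the controls. In the neutrophil table it was 827, 247, 328 and 266 in wt, 111, 77.9 and 87.7 in ko_igg, and 32.2, 65.1 and 41.2 in ko_ly6g. Values are read numbers scaled by a single factor for each library and carry no correction for gene length, so levels are compared between libraries and not between genes. Whole reads, recovered in 32 of 34 libraries, ranged from 1458726 to 2487074 for the first table, from 747046 to 2775974 for the rescue table and from 1028567 to 4525047 for the neutrophil table. The lowest of the rescue table were IL10R_abx_160, IL10R_abx_161 and IL10R_abx_495, at 747046, 877518 and 877627 reads. Of 14 macrophage markers 12, 12 and 11 were listed in the 3 tables, and all listed ones were used in the sums below. Of 20 epithelial markers 19 were listed in each table, and none of these was at 0 in any library.

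The clearest pattern lay between antibiotic-treated and untreated mice. In the rescue table, 66 of 72 tested members fell from IL10R to IL10R_abx and none rose (limma, Benjamini-Hochberg adjusted p under 0.05), where 27.3% of all 6612 genes tested fell. Their median log2 change was -0.83, against 0.03 over all genes tested. The libraries of the 2 groups did not overlap for 59 members, all lower with antibiotics, against 19.5% of all genes. As a share of a library's summed value, the members made up 3.86% ± 0.213 (SD, n = 5) in IL10R and 1.83% ± 0.132 (SD, n = 4) in IL10R_abx, as the plot of shares by library shows. Rescaling all libraries to equal totals moved the median of all genes by -0.206 and gave 68 members that fell, with a median of -1.03. In that fit 2419 of all 6612 genes tested fell. The share of higher calls among all called genes went from 52.8% to 38.6%. In RNA from sorted populations, fewer cells of a type and less RNA per cell cannot be told apart.

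**Figure D1:**
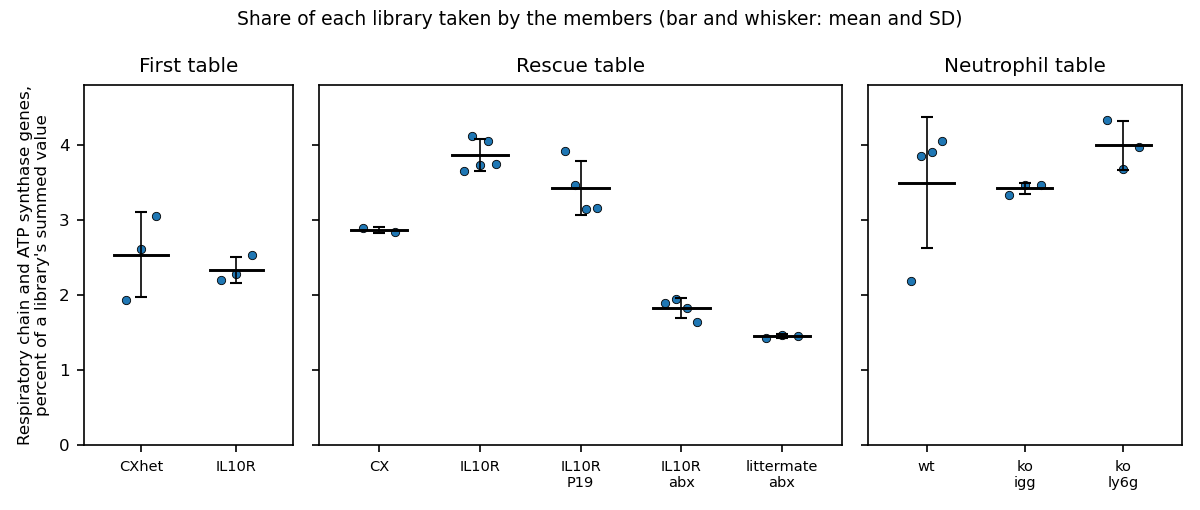
Share of each library's summed deposited value (percent, y axis) taken by the chosen genes, for the groups of the 3 tables (x axis); points are libraries, bars and whiskers the mean and SD. The 7 libraries from antibiotic-treated mice lie between 1.42% and 1.94%, below all 11 untreated libraries of the rescue table, which lie between 2.83% and 4.12%.

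All 9 complex III members fell, with a median log2 change of -1.06. Uqcr10, a small accessory subunit of complex III, had values of 2471, 2676, 2355, 2539 and 2399 in IL10R and 1014, 809, 966 and 919 in IL10R_abx. Every antibiotic library was below every untreated one, and the log2 change was -1.43 (SE 0.12, limma adjusted p = 1.47e-08), the smallest adjusted p among the members. Cyc1, the haem-carrying subunit that hands electrons to cytochrome c, was at 1443, 1526, 1181, 1504 and 1284 in IL10R and 575, 767, 431 and 430 in IL10R_abx, without overlap (log2 change -1.37, SE 0.17, limma adjusted p = 1.03e-06). The iron-sulphur subunit Uqcrfs1 (log2 change -1.06) and the core subunit Uqcrc1 (-0.70) fell as well. Uqcrb had the lowest change of the complex, -1.56 (SE 0.38), but IL10R_abx_161, at 33.9, lay far below the other 3 antibiotic libraries at 146, 212 and 212. In IL10R_abx_161 a value of 1.88 is 1 read, so its Uqcrb value rests on few reads.

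Of 10 tested complex IV members 9 fell, with a median of -0.93 over all 10. Cox6b1, which bridges the monomers of cytochrome c oxidase, was at 1147, 1254, 1249, 1338 and 1211 in IL10R and 494, 532, 639 and 651 in IL10R_abx (log2 change -1.11, SE 0.12, limma adjusted p = 1.67e-07). The groups did not overlap. Cox8a, the ubiquitous form of subunit VIII, had the largest fall among the members, -1.57 (SE 0.25), from 1943, 2417, 2220, 2090 and 2058 to 749, 318, 975 and 1146. Here too IL10R_abx_161 was lowest, and the groups did not overlap without it either. Cox5a, which carries no haem and lies on the matrix side, changed by -0.94, Cox6c by -0.93, Cox6a1 by -0.78 and Cox7a2, the broadly expressed form of subunit VIIa, by -1.16.

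Of 15 tested complex V members 13 fell (median -0.95). Atp5d, a subunit of the central stalk, went from 2464, 2581, 2511, 2758 and 2723 in IL10R to 1334, 1254, 1283 and 1479 in IL10R_abx, with no overlap and little spread within either group (log2 change -0.96, SE 0.11, limma adjusted p = 3.58e-07). The catalytic beta subunit Atp5b was at 3863 to 5131 in IL10R and 2027 to 2316 in IL10R_abx (SE of the log2 change 0.12, limma adjusted p = 1.40e-06), the alpha subunit Atp5a1 changed by -0.90 and the stalk subunit Atp5e by -0.59. The c-ring, the rotor through which protons flow, is encoded by several genes for the same mature protein. Atp5g1 was at 399, 392, 343, 422 and 397 against 172, 228, 159 and 129 (log2 change -1.21), and Atp5g3 changed by -0.95. Atp5j, a subunit of the peripheral stalk, changed by -1.47, with IL10R_abx_161 again lowest, at 56.4 against 250, 224 and 233 in the other antibiotic libraries. The membrane subunit Atp5j2 changed by -1.05.

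Of 34 tested complex I members 31 fell (median -0.74), among them all 6 tested core subunits and 25 of 28 accessory subunits. The core subunits carry the flavin and the iron-sulphur clusters, and Ndufv1, which binds NADH, changed by -0.81 and Ndufs1 by -0.94. The accessory subunit Ndufb6 showed the smallest adjusted p of the complex: 296, 328, 265, 287 and 282 in IL10R against 111, 126, 115 and 110 in IL10R_abx, without overlap (log2 change -1.33, SE 0.12, limma adjusted p = 2.22e-08). Ndufa13 had the smallest fall among called members of the complex, -0.47. All 4 subunits of complex II, which is also the succinate dehydrogenase of the tricarboxylic acid cycle, fell with a median of -0.76. Its flavoprotein Sdha was at 424, 431, 415, 465 and 424 in IL10R and 231, 374, 232 and 250 in IL10R_abx (log2 change -0.70), and its iron-sulphur subunit Sdhb changed by -0.53. Differences between the complexes were not tested.

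Outside this pattern stood 6 members that were not called: Cox7a2l, Ndufb11, Ndufa12, Ndufc2, Atp5l and Atp5sl. Cox7a2l was at 212, 169, 274, 365 and 269 in IL10R and 407, 371, 254 and 234 in IL10R_abx, so the groups overlapped (log2 change 0.30, SE 0.19, limma adjusted p = 0.191). Ndufb11 was at 311 to 431 in IL10R and 579, 598, 337 and 250 in IL10R_abx. In both genes IL10R_abx_160 and IL10R_abx_161 were high and IL10R_abx_495 and IL10R_abx_497 were not, and the same pair stood apart in the heat shock gene Hspa8, at 1928 and 2654 against 320 and 457. Without that pair, an alternative chosen after seeing the data, the members' median change was -0.93, and Cox7a2l was at -0.031. No label gives a batch for these libraries. The heat map by complex shows both the common fall and these exceptions.

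**Figure D2:**
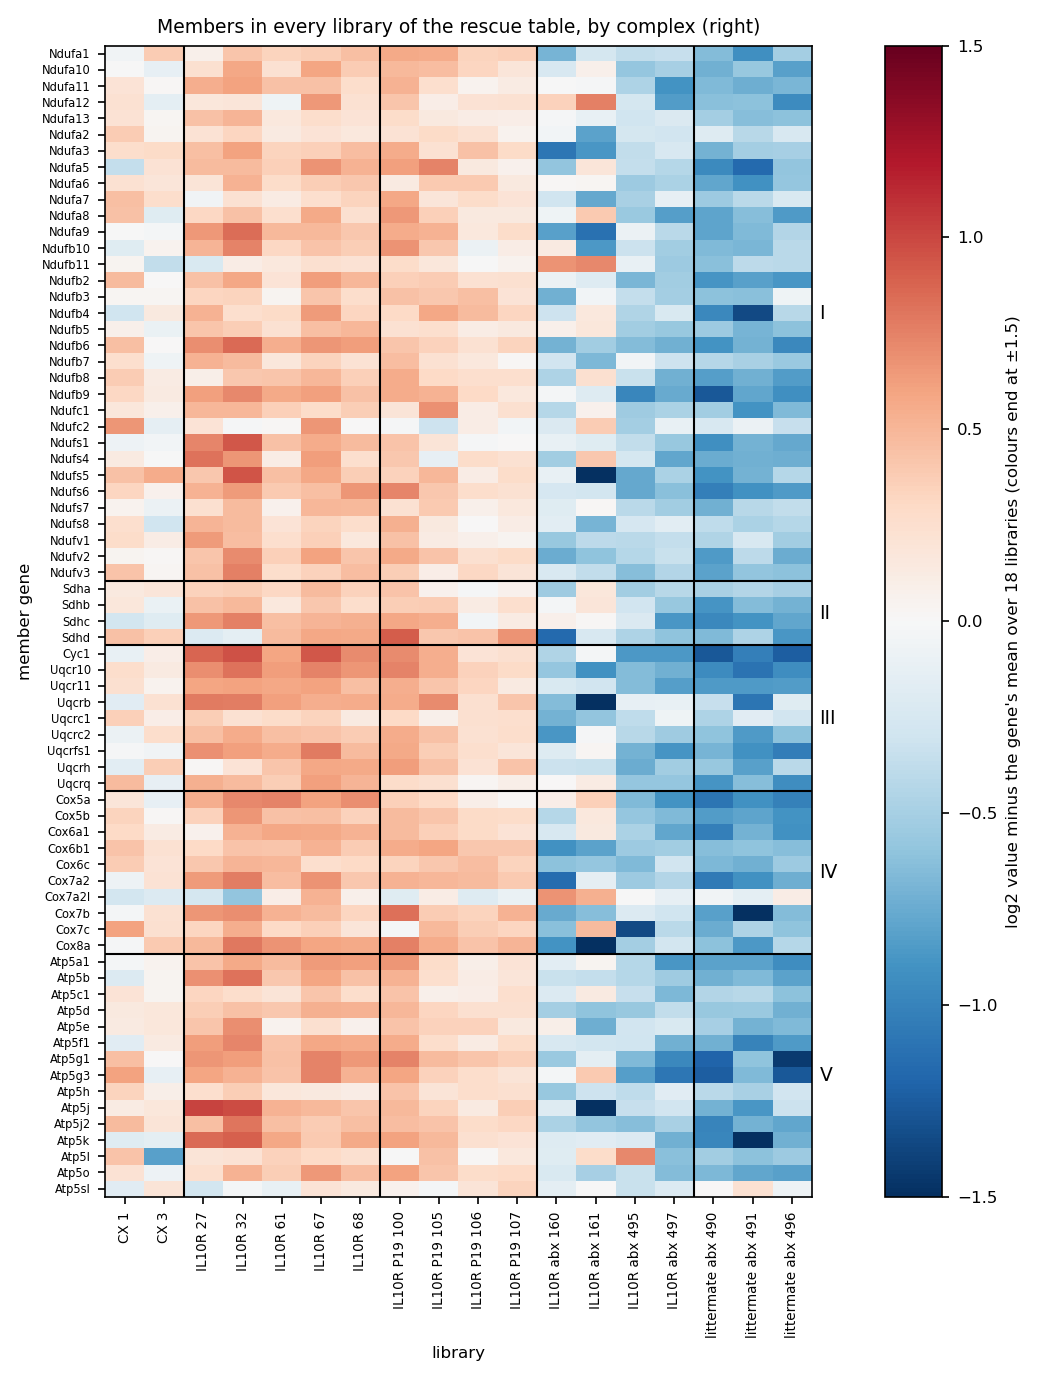
Each of 71 tested members (rows, by complex I to V) in each of the 18 rescue libraries (columns), as the log2 value minus the gene's mean over the 18 libraries; red is above and blue below that mean, and colours end at ±1.5. Columns of the 7 antibiotic libraries are mostly blue, with Cox7a2l and Ndufb11 red in IL10R_abx_160 and IL10R_abx_161.

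The sequence around the start sites was read for all members, whether or not they changed. Of the 76 genes, 65 matched an entry in RefSeq's promoter table (build GRCm38.p6), 3 of them under an older symbol, and these gave 71 promoters of 250 bases before and 50 after the start. Each was searched on both strands for 4 motifs of 7 bases that are known from genes of oxidative phosphorylation. CCGGAAG, an ETS site of the kind bound by GABP, was in 22.5% of the members' promoters and in 8.86% of all 32851 promoters. CGCATGC, the core of the NRF1 site, was in 14.1% against 3.58%, AAGGTCA, a site of the oestrogen-related receptors, in 11.3% against 4.72%, and ATGGCGG, a YY1 core, in 18.3% against 4.05%. The 32851 promoters are not limited to genes measured here, so the members are not compared with expressed genes alone. Of the 71 member promoters 36 held any of the 4 motifs. Several of the YY1 matches lie after the start. Some genes have overlapping promoter entries, so the YY1 site of Atp5sl and that of Ndufa7 are counted in each of their entries. The NRF1 core overlaps its own reverse complement where both make an 8-base palindrome. The 120 bases before the start are shown for 4 members that fell and hold a match in that stretch, for Uqcr10, which fell with no match, and for Cox7a2l, which was not called and also has no match. They lie at chr7:30626115-30626234 on the minus strand for Cox6b1, chr10:80406822-80406941 on the minus strand for Uqcr11, chr5:108434400-108434519 on the minus strand for Atp5k, chr17:56717642-56717761 on the plus strand for Ndufa11, chr11:4704345-4704464 on the minus strand for Uqcr10 and chr17:83514334-83514453 on the minus strand for Cox7a2l. Each is written 5′ to 3′ on the gene's strand, with matches that lie wholly within it in capitals.
Cox6b1: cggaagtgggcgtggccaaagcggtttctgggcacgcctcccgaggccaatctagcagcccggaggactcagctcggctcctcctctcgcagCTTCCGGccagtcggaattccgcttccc
Uqcr11: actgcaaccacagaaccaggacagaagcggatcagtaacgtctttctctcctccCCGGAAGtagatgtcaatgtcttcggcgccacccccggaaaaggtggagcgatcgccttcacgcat
Atp5k: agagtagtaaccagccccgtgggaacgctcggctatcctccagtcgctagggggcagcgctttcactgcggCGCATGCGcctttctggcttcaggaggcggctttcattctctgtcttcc
Ndufa11: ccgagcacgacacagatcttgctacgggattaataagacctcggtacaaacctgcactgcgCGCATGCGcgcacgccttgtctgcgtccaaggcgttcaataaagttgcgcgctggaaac
Uqcr10: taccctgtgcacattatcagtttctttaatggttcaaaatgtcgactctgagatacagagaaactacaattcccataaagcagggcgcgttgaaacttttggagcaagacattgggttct
Cox7a2l: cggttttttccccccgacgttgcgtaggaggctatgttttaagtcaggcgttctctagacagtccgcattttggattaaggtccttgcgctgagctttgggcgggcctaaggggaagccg
The capitals mark ETS matches in Cox6b1 and Uqcr11 and the NRF1 palindrome in Atp5k and Ndufa11. Not marked are an NRF1 palindrome across the start of Uqcr11, and an ETS match and an oestrogen-related receptor site after the start of Atp5k. A match is a description of the letters and not evidence of binding.

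The same fall was seen between the untreated CX and the antibiotic-treated littermate libraries, none of which carries the low Il10ra of the IL10R groups. These groups differ both in title and in antibiotics, with no treated CX or untreated littermate library, so the parts of each cannot be told apart. Here 59 of 72 members fell and none rose (limma), where 17.5% of all genes fell, and the median change was -0.81. By complex, 27 of 34 members of complex I, 4 of 4 of complex II, 8 of 9 of complex III, 8 of 10 of complex IV and 12 of 15 of complex V fell. Uqcr10 was at 1820 and 1666 in CX and at 787, 704 and 797 in littermate_abx (log2 change -1.19, SE 0.16, limma adjusted p = 3.23e-05). Both CX libraries lay above all 3 antibiotic libraries, as they did for 68 members, against 29.1% of all genes. Ndufb6 changed by -1.08, Atp5j2 by -1.16, Cox6b1 by -0.96, Cox6c by -0.94, Ndufs6 by -1.12, Atp5g1 by -1.31 and Cyc1 by -1.16, all called. Cox8a (-0.82), Uqcrb (-0.57) and Atp5j (-0.78) were not called. With only these groups fitted, Cox8a and Atp5j were called (limma adjusted p = 0.00621 and 0.00665), and edgeR called Cox8a (adjusted p = 0.0339). With 2 CX libraries the count rested on few samples: it was 37 without CX 1 and 53 at most when any 1 library was left out. At equal totals the higher share of all called genes went from 48.6% to 35%, and 63 members fell, as did 1443 of all 6612 genes.

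Against IL10R_P19 the antibiotic IL10R libraries gave the same picture, with the IL10R_abx libraries shared between the 2 comparisons: 64 members fell and none rose (limma; 22.4% of all genes fell), with a median of -0.68. At equal totals 67 fell, as did 1992 of all 6612 genes, and the higher share of all called genes went from 53.5% to 38.6%. Uqcr10 changed by -1.20, Cox6b1 by -1.18, Ndufb6 by -0.99 and Cox8a by -1.51. Both antibiotic groups were then set against each other. None of 72 members was called between IL10R_abx and littermate_abx by limma or by edgeR (0.0302% of all genes were called by limma). Of all 6612 genes edgeR called 1 higher and 1 lower. Still, 60 were higher in IL10R_abx, with a median of 0.32 against 0.03 over all genes. The members were read from the same libraries, so these are not separate observations. Of the members 32 had an unadjusted limma p under 0.05. The share of all genes at that unadjusted threshold was not counted. Without IL10R_abx_497, 15 members were called higher, but the share of all genes called in that fit was not counted. The test of whether the difference between receptor-deficient and control libraries depended on antibiotics called no member either (limma; 0.106% of all genes; 0 members at an unadjusted p under 0.05 and 0 by edgeR), with a median of -0.02. By edgeR 24 of all 6612 genes were called higher in this test and 0 lower. The untreated control of this test was CX and its treated control littermate_abx, so control title and antibiotics cannot be told apart in it.

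**Figure D3:**
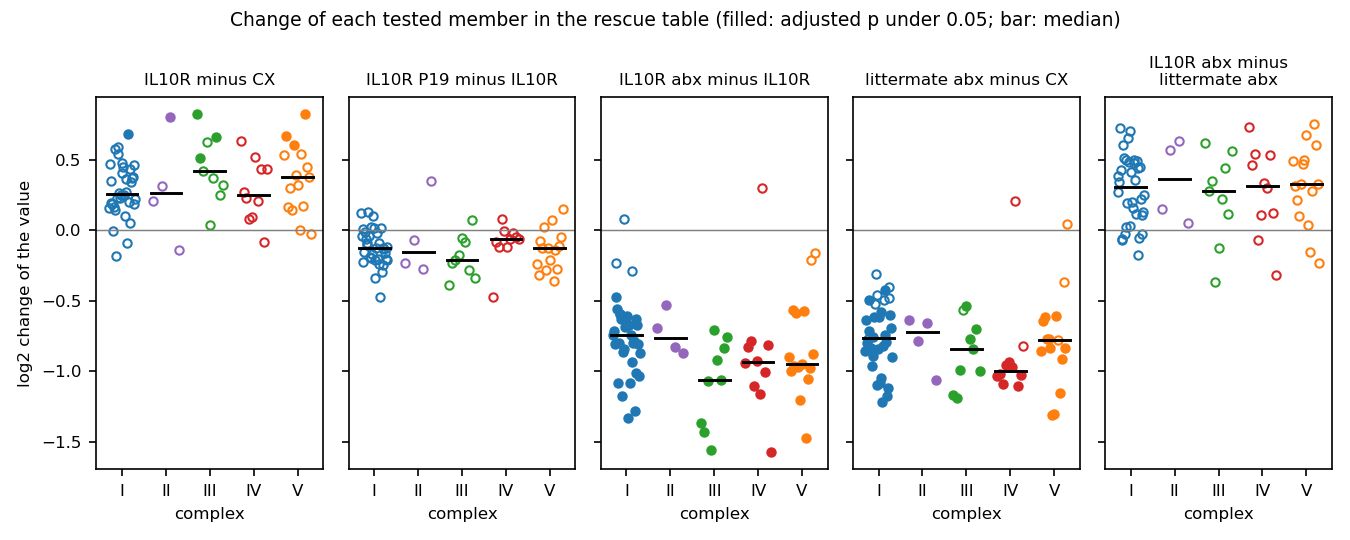
Log2 change (y axis) of each tested member in 5 comparisons of the rescue table (panels), by complex (x axis); filled points had an adjusted p under 0.05 and bars are medians. Medians of all members are 0.32, -0.12, -0.83, -0.81 and 0.32 from left to right; 66 of 72 points are filled and below 0 between IL10R_abx and IL10R, and 59 of 72 between littermate_abx and CX.

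Markers of other cells moved with the antibiotic groups. The 19 listed epithelial markers made up 1.94% to 2.40% of the summed value in IL10R, 1.79% to 2.26% in IL10R_P19 and 1.82% to 2.00% in CX, but 0.341% to 0.57% in IL10R_abx and 0.305% to 0.468% in littermate_abx. All 19 fell from IL10R to IL10R_abx, with a median of -2.15, and all 19 fell from CX to littermate_abx, with a median of -2.10 (limma). Of all genes tested, 27.3% and 17.5% fell in these comparisons. The 12 listed macrophage markers made up 0.849% to 1.16% in IL10R and 2.27% to 3.04% in IL10R_abx. All 12 rose between these groups, as did 2020 of all 6612 genes tested. They made up 1.96% to 1.97% in CX and 2.67% to 3.03% in littermate_abx, where 7 of 12 rose, as did 1094 of all 6612 genes. Of 6 tested stromal and endothelial markers 5 fell from IL10R to IL10R_abx (median -0.94) and 2 fell from CX to littermate_abx (median -1.06). Few markers of other leukocytes were tested: between IL10R and IL10R_abx Cd4 (2.01), Batf3 (1.54), Csf3r (1.23) and F13a1 (4.37) rose, and Plac8 (-2.87) and Ly6c1 (-2.29) fell, while of 4 tested B and plasma cell markers 2 rose and 2 fell. The sort should leave out epithelial cells. The part of these marker sets in the members' fall was not tested. The epithelial and macrophage sums are set against the members' share in the plot of shares against markers.

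**Figure D4:**
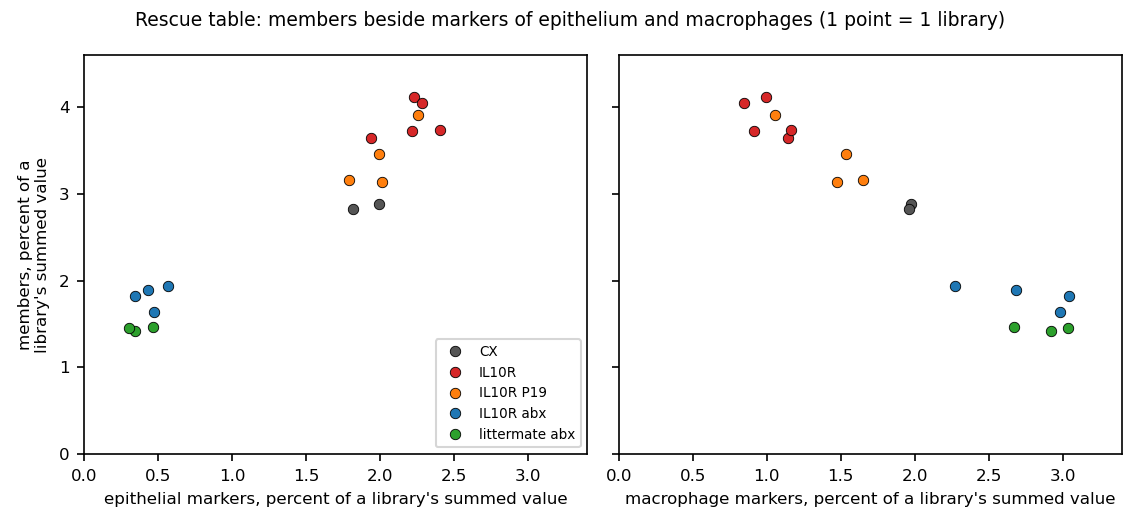
Share of the summed value taken by the chosen genes (percent, y axis) against that of 19 epithelial markers (left) and 12 macrophage markers (right, percent, x axes) in the 18 rescue libraries, coloured by group. Antibiotic libraries lie at low epithelial and high macrophage shares, with members at 1.94% or less; the CX libraries lie near the IL10R_P19 libraries in epithelial share but lower in members.

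Without antibiotics, a smaller difference lay in the other direction. Between IL10R and CX 8 members rose and none fell (limma), where 3.87% of all genes rose, and 66 of 72 had a positive change, with a median of 0.32 against 0.01 over all genes. The called members were Atp5b, Ndufs1, Atp5k, Cyc1, Sdhc, Atp5f1, Uqcr10 and Uqcrfs1, from 4 of the 5 complexes. Atp5b was at 2531 and 3021 in CX and 4722, 5131, 3863, 4416 and 3985 in IL10R (log2 change 0.67, SE 0.16, limma adjusted p = 0.0123). Cyc1 was at 726 and 839 against 1181 to 1526 (0.82, SE 0.21), and Sdhc, a membrane anchor of complex II, at 587 and 625 against 968 to 1194 (0.80, SE 0.22). In 36 members every IL10R library was above both CX libraries, against 18.8% of all genes. No member was called without CX 1 or without CX 3, 4 were called without IL10R 32, and 16 when only these groups were fitted. The share of all genes called was not counted for the fits with a library left out or with only these groups. At equal totals 11 rose, as did 388 of all 6612 genes, and the higher share of all called genes went from 39.1% to 54%. Beside this, 10 of 12 macrophage markers fell between CX and IL10R, as did 399 of all 6612 genes. Of 19 epithelial markers 1 rose, and Hspa8 was at 1333 and 1358 in CX and at 211 to 325 in IL10R. Their part in the difference was not tested.

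The IL10R_P19 libraries did not differ from IL10R in any called member. Between IL10R_P19 and IL10R none of 72 was called by limma (2.43% of all genes were), and the median was -0.12. Of the members 7 had an unadjusted limma p under 0.05, all of them lower in IL10R_P19. The share of all genes at that unadjusted threshold was not counted. Ndufs1, an iron-sulphur subunit of complex I, came closest: 286, 328, 232, 253 and 239 in IL10R and 230, 196, 170 and 172 in IL10R_P19, without overlap (log2 change -0.47, SE 0.14, limma adjusted p = 0.0678). edgeR on the recovered reads called 1 member, and so did limma without IL10R_P19_100 or with only these groups fitted. Of all 6612 genes edgeR called 189 higher and 98 lower. Ndufs1 had 163 and 167 in CX, so that the IL10R_P19 libraries lay between both other untreated groups. Between IL10R_P19 and CX no member was called by limma or edgeR (0.0302% of all genes by limma), and the median was 0.19. Of all 6612 genes edgeR called 1 higher and 1 lower.

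In the first table, which compared IL10R with CXhet, only Cox7a1 among 72 tested members was called (limma; 8.69% of all genes were called and 4.12% fell). Cox7a1 encodes the form of complex IV subunit VIIa typical of heart and skeletal muscle. It was at 78.6, 73.6 and 114.0 in CXhet and at 15.9, 24.6 and 21.2 in IL10R, without overlap (log2 change -2.04, SE 0.34, limma adjusted p = 0.00936). Without the library labelled IL10R 2, whose Il10ra was near the controls, the change was -2.17 (limma adjusted p = 0.00494). Without CXhet 2 or CXhet 3 the adjusted p was 0.0566 and 0.0888, at changes of -2.15 and -1.84. The median over members was 0.02, and the sums of all members made up 2.53% ± 0.566 (SD, n = 3) in CXhet and 2.33% ± 0.175 (SD, n = 3) in IL10R. Epithelial markers made up 0.780% to 1.57% in CXhet and 0.529% to 0.876% in IL10R, with 2 of 17 tested lower, and Hspa8 was at 3712 to 4786 against 209 to 311. Their part in the Cox7a1 difference was not tested.

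In the rescue table Cox7a1 was under the filter on low values and was not tested. It was at 45.6 and 31.3 in CX, and at 13.004, 43.6, 35.7, 44.0 and 36.2 in IL10R, with overlap. In IL10R_abx it was at 26.1, 45.1, 23.7 and 18.3, and in littermate_abx at 12.4, 8.13 and 13.7, the lowest of the 5 groups by median. These antibiotic groups did not overlap, and here the receptor-deficient libraries were the higher ones, opposite to the first table. In these libraries 1 read is a value between 0.961 and 2.18, so the Cox7a1 values rest on few reads. The share of all genes without overlap is not given for this comparison. In the neutrophil table it was at 26.8, 127, 150 and 209 in wt and at 45.2, 39.9 and 64.9 in ko_igg, with overlap (log2 change -1.05, limma adjusted p = 0.289), and wt 1 lay below all ko_igg libraries. Its paralog Cox7a2 was at 277, 685 and 591 in CXhet and 446, 974 and 498 in the IL10R libraries of the first table, with overlap. The plot of the Cox7a genes shows all 34 libraries.

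**Figure D5:**
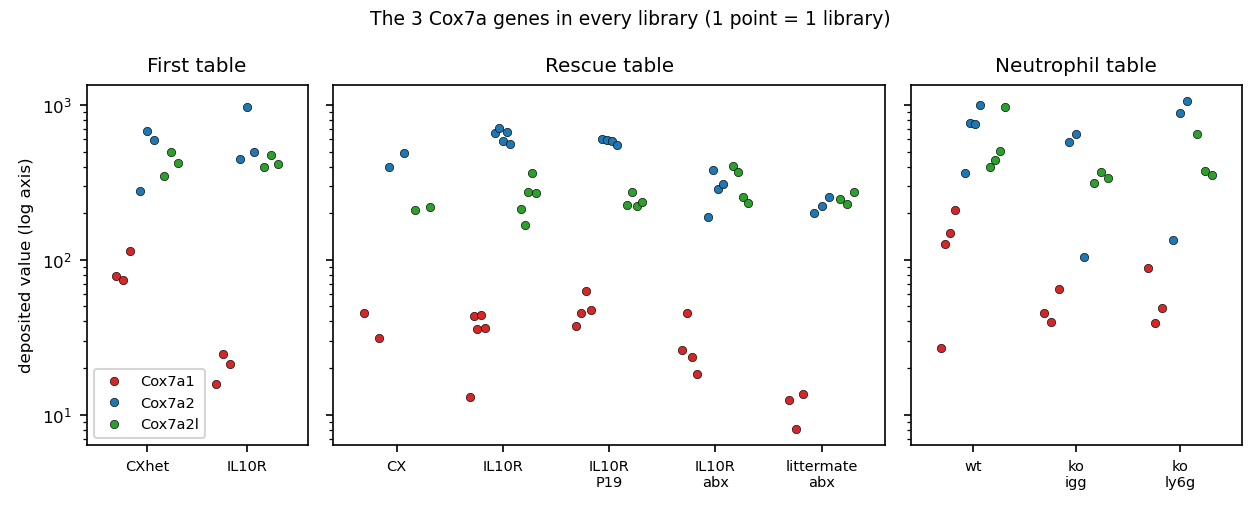
Deposited values (y axis, log scale) of Cox7a1, Cox7a2 and Cox7a2l in every library, by group (x axis) and table (panels); heights are not corrected for gene length and tables were scaled separately. Cox7a1 is lower in all 3 IL10R than in all 3 CXhet libraries of the first table; Cox7a2, but not Cox7a2l, is lower in the antibiotic groups of the rescue table.

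In the chimeras of the neutrophil table no member was called in any of 3 comparisons by limma, or by edgeR, whose fit leaves out ko_igg 16 and wt 3 because their reads could not be recovered. That fit called few genes of any kind. Of all 6594 genes, 43 were higher and 13 lower between ko_igg and wt, and 39 higher and 16 lower between ko_ly6g and wt. Between ko_ly6g and ko_igg it called 0. Between ko_igg and wt 9.19% of all genes were called by limma, and 10 members had an unadjusted p under 0.05, all lower in ko_igg. The share of all genes at that unadjusted threshold was not counted. The median was -0.04 over all members, -0.68 over the 11 of complex IV and 0.19 over the 14 of complex V. Atp5h, a peripheral stalk subunit, came closest, at 1325, 1317, 1504 and 1789 in wt and 815, 879 and 403 in ko_igg, without overlap (log2 change -1.15, SE 0.34, limma adjusted p = 0.0560). Cox6c was at 720, 798, 815 and 932 against 507, 578 and 360 (-0.78, limma adjusted p = 0.0887). The library wt 1 stood apart, with the members at 2.19% of its summed value against 3.85% to 4.05% in the other wt libraries, macrophage markers at 3.10% and epithelial markers at 1.15%. Without wt 1, 7 members were called between ko_igg and wt and 1 between ko_ly6g and wt. The share of all genes called in that fit was not counted.

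Between ko_ly6g and ko_igg, the comparison that the antibody titles set up, 0 of 72 members and 0% of all genes were called (limma). Of the members 62 of 72 were positive (median 0.25 against -0.001 over all genes), and 2, Cox5b and Cox6b1, had an unadjusted limma p under 0.05. The share of all genes at that unadjusted threshold was not counted. Cox5b, a zinc-binding subunit of complex IV, was at 672, 688 and 569 in ko_igg and 1200, 916 and 1042 in ko_ly6g, without overlap (log2 change 0.71, SE 0.30). Between ko_ly6g and wt, where 4.34% of all genes were called, the median was 0.22.

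Other genes of mitochondrial energy metabolism were read from lists by function. Between IL10R_abx and IL10R, 19 of 22 tested genes of the tricarboxylic acid cycle and pyruvate entry fell and 1 rose (limma), where 27.3% of all genes fell. Suclg1, a subunit of succinyl-CoA ligase, changed by -1.51, Idh3a of isocitrate dehydrogenase by -1.19, Mdh2, the mitochondrial malate dehydrogenase, by -1.13 and Dlat of the pyruvate dehydrogenase complex by -0.91. Among 25 tested assembly factors 13 fell and 2 rose, led by Cox10 (-1.26) and Cox11 (-1.27), which act in haem A synthesis and copper insertion for complex IV, and by Coa3 (-0.92) and Ecsit (-0.98). Of 10 carriers and porins 6 fell and 1 rose, with Slc25a20, the carnitine carrier, at -1.48, the adenine nucleotide carrier Slc25a5 at -0.86 and Vdac1 at -0.81. Of 22 genes listed as outside the symbol rule, 4 were in the rescue table and 2 were tested. Both were called lower: the subunit gene Cox4i1 at -0.62 and the ATP synthase inhibitor Atpif1 at -0.53. Of 7 regulators of mitochondrial biogenesis 3 fell, Esrra (-0.90), Ppargc1b (-1.07) and Tfam (-0.64), and 2 rose, among them Gabpa (0.56), a count of falls not far from the share over all genes. Tfam was not called without IL10R_abx_495 or without IL10R_abx_497 (limma adjusted p = 0.0632 and 0.0721). Between littermate_abx and CX, 14 of 22 genes of the cycle were called lower, 6 of 25 assembly factors and 1 of 7 regulators. Where 17.5% of all genes were lower, the counts for assembly factors and regulators were near that share.

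The list of the itaconate, nitric oxide and hypoxia switch covers genes of inflammatory macrophage metabolism. Of its 8 tested genes 7 rose from CXhet to IL10R in the first table (limma), where 4.57% of all genes rose, with Nos2, the inducible nitric oxide synthase, at 6.69 and Irg1, which makes itaconate, an inhibitor of succinate dehydrogenase, at 5.26. In the chimeras 5 of 7 rose between wt and ko_igg, where 5.73% of all genes rose, with Nos2 at 5.498 and the same itaconate gene, listed there as Acod1, at 5.48. Between CX and IL10R 1 of 5 rose, Nos2 at 6.47, and this call was lost without CX 1 (limma adjusted p = 0.0686). Between CX and IL10R_P19 none of the 5 was called by limma, and 0 had an unadjusted p under 0.05 (Nos2 2.38, unadjusted p = 0.0502, limma adjusted p = 0.893), and Nos2 changed by -4.09 from IL10R to IL10R_P19 (limma adjusted p = 0.0179). From IL10R to IL10R_abx 4 of the 5 fell and 0 rose (limma), where 27.3% of all genes fell. They were Nos2 (-4.69), Ldha (-1.01), Hif1a (-0.92) and Pkm (-0.63). Sod2, the mitochondrial superoxide dismutase, rose from CXhet to IL10R by 1.74, from wt to ko_igg by 1.10 and from CX to IL10R by 0.81. The first of these calls was lost without CXhet 2 (limma adjusted p = 0.0714), and the last without CX 1, CX 3 or IL10R 32 (0.202, 0.134 and 0.0525). From the cycle, Fh1 (-0.92) and Idh2 (-0.86) fell in the first table, and Mdh2 (0.86) and Dlat (0.62) rose from CX to IL10R. Each of these 4 calls was lost when 1 library was left out: Fh1 without CXhet 2 or CXhet 3 (limma adjusted p = 0.0782 and 0.0662), and Idh2 without CXhet 2, CXhet 3 or IL10R 3 (0.102, 0.0574 and 0.0814). Mdh2 was not called without CX 1 or CX 3 (0.249 and 0.0662), nor Dlat without CX 1, CX 3 or IL10R 32 (0.248, 0.126 and 0.0628). These log2 changes are on the log2(value + pseudocount) scale, which understates the change of low genes.

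Across the 18 rescue libraries, a member's log2 value had a median Pearson r of 0.91 with the mean of the other members. The r was above 0.8 for 59 of 72, and the lowest was that of Cox7a2l, -0.21. The non-members most like the members' mean were Fbp2 (r = 0.98), Slc35a1, Golm1, S100a14 and Slc44a4 (each also r = 0.98). The 18 libraries share 1 table and fall into an antibiotic and an untreated set. A gene that differs between these sets, with little scatter within them, therefore has a strongly positive or negative r with the members. Over the 7 antibiotic libraries the sums of complexes I to V as a share of each library were 0.414% to 0.572%, 0.0694% to 0.121%, 0.209% to 0.292%, 0.261% to 0.358% and 0.438% to 0.621%. Over the 11 untreated ones they were 0.761% to 1.09%, 0.135% to 0.203%, 0.449% to 0.718%, 0.562% to 0.785% and 0.899% to 1.37%, and for no complex did the sets overlap.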

How the data were processed

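Polyadenylated RNA of sorted colonic macrophages was measured in 34 libraries, in 10 groups and 3 tables. The submitters' processing notes name HOMER, HISAT 0.1.6 and bcl2fastq, with mm9 as genome, and how strand was counted is not given in the sources used here. The deposited values are a signal: reads per gene that the authors divided by 1 factor per library, and the whole reads could be recovered in 32 libraries (100% of values within 0.01 read), so depth is known there. Totals of 747046 to 4525047 reads limit precision for low genes. Genes in the lower quartile of the mean value were removed, and log2(value + pseudocount), with pseudocounts of 1.31, 0.997 and 0.982 in the first, rescue and neutrophil tables, was tested with limma 3.58.1 (trend, robust; R 4.3.3) with all groups of a table in 1 fit and Benjamini-Hochberg adjustment over all genes tested. Scripts were tested on simulated data. edgeR 4.0.16 on recovered reads, another pseudocount (10), no filter, equal totals, fits of the compared groups alone and left-out libraries were alternatives. Tables were normalised separately and were tested only within themselves. Named genes were Il10ra, a set of anchor subunits, up to 12 called members per direction by adjusted p, the extremes of each complex, up to 4 called genes per list, paralog pairs and the 5 non-members most like the members' mean. The members and lists were chosen with earlier results of these data known. A member that the rule names is not reported here. Hspa8 and Cox5b were named after their values were seen. Tables were handled in Python 3.11.15 with pandas 2.3.3.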

Additional observations from a re-analysis of the deposited data

Results flagged for a closer look

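Across 148 pairs of a group with a gene or summed measure, 12 had 1 library far from the others of its group by Dixon's criterion, where chance gives about 5%. In IL10R_abx_161, Sdha was at 374 with the nearest library at 250, and Atp5j was at 56.4 with the nearest at 224. In IL10R_abx_497, Atp5k was at 148 with the nearest at 212, and Atp5f1 was at 553 with the nearest at 743. In IL10R 32, Atp5j2 was at 1460.2 with the nearest at 1152. In IL10R 27, Cox7a1 was at 13.004 with the nearest at 35.7, and Cox6a1 was at 2222 with the nearest at 3051.

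In the neutrophil table, wt 1 was low in Sdha (390 with the nearest at 797) and Atp5a1 (1199.6 with the nearest at 2683). Its summed value was 2974 for complex II and 19645 for complex V, where the nearest wt libraries had 5690.4 and 30092. Ndufs1 in wt 4 was at 231 with the nearest at 154.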

How the results depend on the processing

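Of 1191 alternative values for 90 named results, 1134 kept direction and side of the threshold, 49 lost the call, 7 gained one and 1 reversed. That was Cox7a2l between IL10R_abx and IL10R, at -0.031 without IL10R_abx_160 and IL10R_abx_161, an alternative chosen after seeing the data. The same alternative moved the members' median to -0.93 there, to -0.80 against IL10R_P19 and to 0.21 against littermate_abx. Equal totals moved the 3 antibiotic medians to -1.03 (against IL10R), -0.85 (against IL10R_P19) and -0.95 (littermate_abx against CX). With only the compared groups fitted, 16 members were called between IL10R and CX, 1 between IL10R_P19 and IL10R and 1 between ko_igg and wt, and edgeR called 1 between IL10R_P19 and IL10R. Leaving out 1 library gave 0 to 1 calls in the first table, 0 to 8 between IL10R and CX (median 0.23 to 0.41), 0 to 1 between IL10R_P19 and IL10R, 65 to 67 between IL10R_abx and IL10R, 0 to 15 between IL10R_abx and littermate_abx, 37 to 53 between littermate_abx and CX, 0 to 7 between ko_igg and wt and 0 to 1 between ko_ly6g and wt. The causes were not tested. For left-out libraries and fits of the compared groups alone, the share of all genes called was not counted. In the first table the replicate numbers did not pair the libraries (correlations of same-numbered libraries -0.058, 0.151 and 0.354), and with the replicate block Cox7a1 was again the 1 called member (-2.04, limma adjusted p = 0.0196). Without 1 of the CX libraries, the remaining one was taken to scatter as much as the other groups do. Totals down to 747046 reads limit low genes.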
